A study of Saccharomyces cerevisiae with 24 samples.

Results

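The genes described are 55 members of the meiosis and sporulation program of *Saccharomyces cerevisiae*, measured in cells that were dividing by mitosis. They were taken as a list of names, from the inducers of meiosis to the enzymes of the spore wall, and each was matched to the probe set that the array annotation pairs with it. All 55 were found, with 1 probe set each, among 5498 probe sets that the annotation assigns to a single *S. cerevisiae* gene (5449 genes). The rule used names and no measured value, but the list was made with earlier results of these data known. Values are expression levels on a log2 scale, so that a difference of 1 is 2-fold.

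Meiosis in yeast is started when starved diploid cells switch on *IME1*, which drives the early genes of recombination and chromosome pairing. The kinase Ime2 and the transcription factor Ndt80 then open the middle program, which runs the nuclear divisions and builds the prospore membrane, and the late genes finish the spore wall. In haploid cells and in rich supply of nutrients these genes are held off by repressors such as Ume6 with Rpd3 and Sum1 with Hst1. Htz1, the yeast H2A.Z, is a histone variant placed in promoter nucleosomes by the SWR1 complex. Its ATPase is Swr1, and Swc5 is a subunit needed for the exchange. Swc2 binds Htz1, as Swr1 does less strongly, and is required for Swr1 to bind chromatin.

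Expression was profiled on 24 Yeast Genome 2.0 arrays (Affymetrix). RNA came from 8 strains, with 3 cultures grown separately per strain, at mid-log phase in supplemented minimal medium. Wild type was BY4741, and all strains shared its background of *MAT*a, *his3Δ1*, *leu2Δ0*, *ura3Δ0* and *met15Δ0*. They were haploid and therefore could not sporulate. The mutants were *htz1Δ*, *swr1Δ*, *swc2Δ*, *swc5Δ* and the double mutants *htz1Δ swr1Δ*, *htz1Δ swc2Δ* and *htz1Δ swc5Δ*. The *htz1Δ* strain was also *bar1Δ*, and the *htz1Δ swc5Δ* strain was also *lys2Δ0*. The labels name the 3 *swr1Δ* cultures as different strains, and they were taken as 1. In bulk RNA, a lower level in every cell and a smaller number of expressing cells cannot be told apart.

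The labels were checked on the deleted genes. The level of *HTZ1* was 10.13 to 10.30 in wild type and 2.61 to 3.27 in the 4 strains without it, and *SWR1*, *VPS72* (which encodes Swc2) and *SWC5* were likewise low in their own mutants. *BAR1*, the gene of a pheromone protease, was at 2.65 to 3.22 in *htz1Δ* and at 11.55 or more in the 3 double mutants. The medians of the deposited arrays were 9.29 to 9.30 in *swr1Δ*, 10.06 to 10.10 in *swc2Δ* and 9.97 to 9.99 in *swc5Δ*, against 9.71 to 9.77 in the 5 other strains. The 9 arrays of these single mutants were for this reason given, rank for rank, the values of the average array over the other 15. On chromosome V the median difference from wild type was 0.32 and 0.38 in *swc5Δ* cultures 2 and 3 and -0.13 in culture 1. Values of *DMC1*, *MAM1*, *MEI4*, *SPO73* and *SPR6*, which lie on it, were lowest in culture 1 of that strain. So were those of some members on other chromosomes, such as *SPO16* and *MER1*, and the part of chromosome V in this was not tested.

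Most members were dim. Their median level over all arrays was 5.98, against 9.74 for all tested probe sets. Only 11 of the 55 were over a level of 7, 35 lay between 4 and 7 and 9 were under 4, whereas 4955 of the 5498 tested were over 7. To set a floor, each array's probe sets for other species were used, and a member counted as above background where it passed their 95th percentile, which was 3.70 to 3.92. For this the ranks of the single-mutant arrays were mapped over all probe sets of the array, other species included, so their levels given elsewhere, mapped within the tested probe sets, cannot be set against these percentiles directly. By this rule 48 to 51 members were above background on the wild-type arrays, 45 or 46 on those of *htz1Δ*, 41 to 44 in *swr1Δ*, 42 to 45 in *htz1Δ swr1Δ*, 49 to 53 in *swc2Δ*, 47 to 51 in *htz1Δ swc2Δ*, 45 to 48 in *swc5Δ* and 44 to 52 in *htz1Δ swc5Δ*. With the levels as given elsewhere the numbers were 45 to 46 in *swr1Δ*, 44 to 50 in *swc2Δ* and 45 to 47 in *swc5Δ*. At the 99th percentile they were 43 to 45 in wild type, 32 to 35 in *htz1Δ* and 32 to 36 in *swr1Δ*. The spread between cultures was larger for these dim genes, with a median SD of 0.17 within a strain against 0.091 for all tested.

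**Figure D1:**
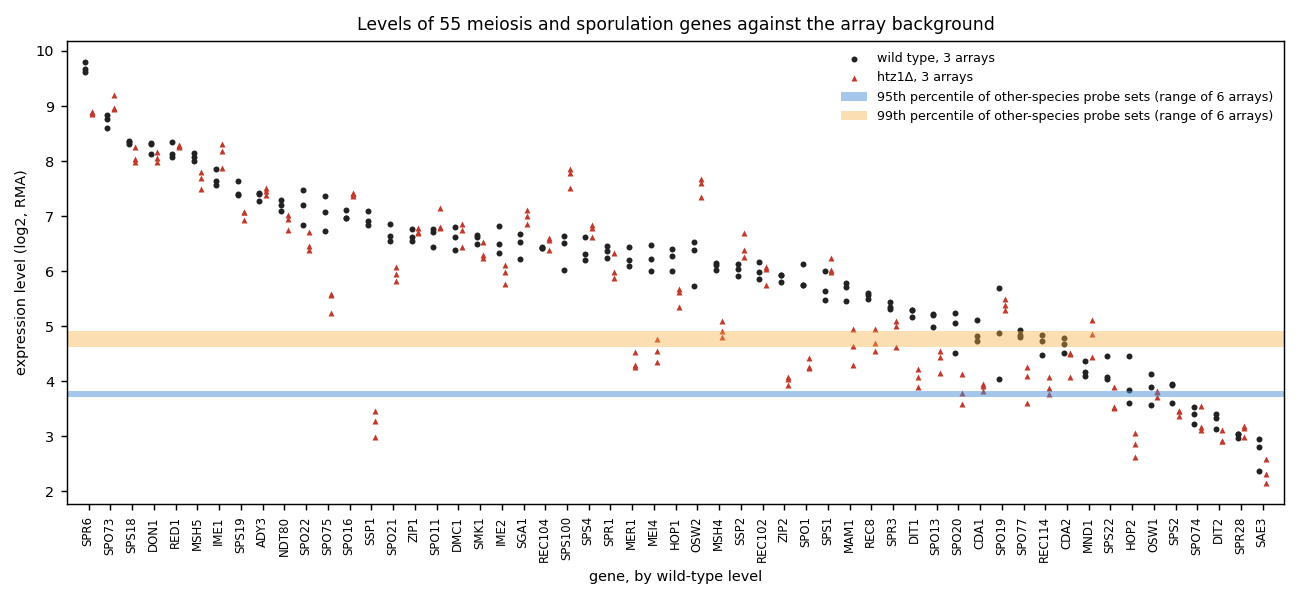
Expression level (log2) of each of the 55 genes on the 3 wild-type arrays (circles) and the 3 *htz1Δ* arrays (triangles), ordered by the wild-type mean, with bands for the 95th and the 99th percentile of other-species probe sets on these 6 arrays. *SPR6* and *SPO73* stand at the top, *SAE3* at the bottom, and *SSP1* is the gene that falls from among the brighter members to below the background band.

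The brightest member was *SPR6*, a gene induced in sporulation with no known function, with levels of 9.62, 9.80 and 9.67 in wild type. It was followed by *SPO73*, needed for prospore membrane growth, at 8.83, 8.60 and 8.76, and *SPS18*, which encodes a zinc finger protein, at 8.35, 8.32 and 8.37. The dimmest were *SAE3*, whose product helps the recombinase Dmc1, at 2.36, 2.79 and 2.95, the septin gene *SPR28* at 3.04, 3.04 and 2.97, and *DIT2*, which encodes a dityrosine-forming enzyme of the spore wall, at 3.33, 3.41 and 3.13. These 3 dim genes were below background in wild type on all 3 arrays, as was *SPO74*, and *SPR28* was below it on every one of the 24 arrays. For such genes the arrays gave no level that a loss could be measured from.

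To ask which members depend on Htz1 and SWR1 in mitotic cells, each mutant was compared with wild type in 1 limma fit over all arrays. A gene was called where its adjusted p was under 0.05 and its change over 2-fold. Of the 55 members, 19 (34.5%) were called in at least 1 of the 7 mutants and 36 in none, against 8.33% called in at least 1 among all tested. In *htz1Δ* 11 members (20%) were called lower and 2 higher, against 3.55% and 2.11% of all tested. In *swr1Δ* 6 were lower (10.9%) and none higher, against 1.78% and 0.837%. In *htz1Δ swr1Δ* 10 were lower (18.2%) and none higher, against 2.06% and 0.764%. In *swc2Δ* 5 were lower and 2 higher, against 1.6% and 0.746%, and in *htz1Δ swc2Δ* 4 and 1, against 1.67% and 0.509%. In *swc5Δ* 6 were lower and none higher, against 2.27% and 0.527%, and in *htz1Δ swc5Δ* 4 and none, against 1.49% and 0.673%. Members with an unadjusted p under 0.05 and a higher level numbered 4 in *swr1Δ*, 2 in *htz1Δ swr1Δ*, 4 in *swc5Δ* and 8 in *htz1Δ swc5Δ*, where none was called higher.

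The members were dim, and probe sets of the same brightness gave other shares than the array as a whole. Among the 442 tested probe sets with a mean level between 4 and 7, the share called lower was 23.5% in *htz1Δ*, 14.7% in *swr1Δ*, 17.4% in *htz1Δ swr1Δ*, 13.3% in *swc2Δ*, 12.4% in *htz1Δ swc2Δ*, 15.2% in *swc5Δ* and 11.1% in *htz1Δ swc5Δ*. For the 35 members in that range the shares were 25.7%, 14.3%, 25.7%, 11.4%, 8.57%, 14.3% and 8.57%, in the same order. Against this background the members' share was close or lower in 6 mutants and higher in *htz1Δ swr1Δ*, and no difference between the shares was tested. In at least 1 mutant, 45.7% of these members and 39.8% of these probe sets were called in either direction. The members between 4 and 7 had a median difference of -0.59 in *htz1Δ* and -0.64 in *htz1Δ swr1Δ*, where all probe sets in that range had -0.37 and -0.37. The medians were -0.47 against -0.25 in *swr1Δ*, -0.24 against -0.29 in *swc2Δ*, -0.34 against -0.23 in *htz1Δ swc2Δ*, -0.26 against -0.22 in *swc5Δ* and -0.43 against -0.27 in *htz1Δ swc5Δ*, so that the members' median was the lower in 6 mutants and the higher in *swc2Δ*.

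**Figure D2:**
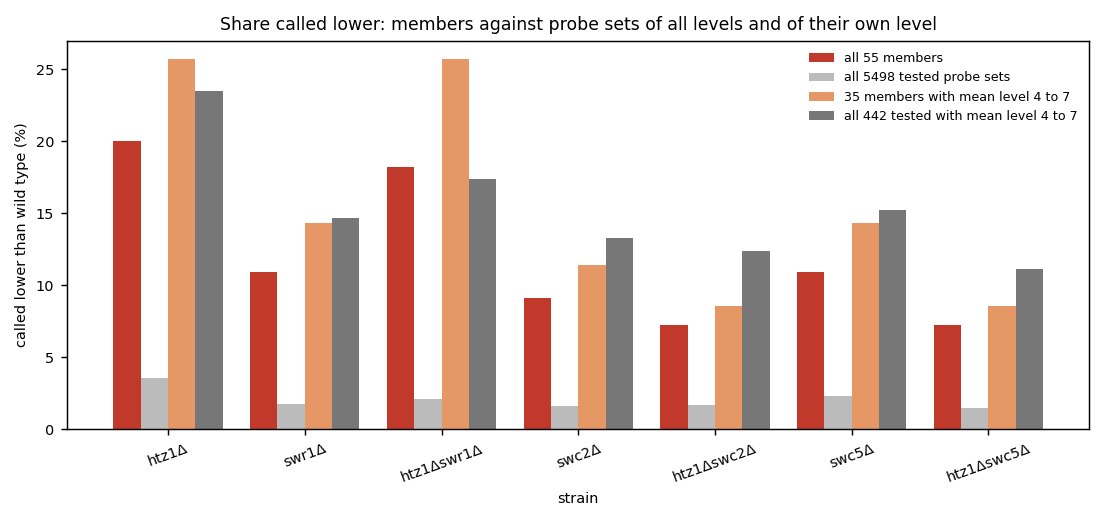
Share (%) called lower than wild type in each mutant, for all 55 members, all tested probe sets, the 35 members with a mean level of 4 to 7 and all 442 tested probe sets of that level. The members exceed the tested probe sets as a whole in every mutant (20% against 3.55% in *htz1Δ*), and the shares lie closer to each other for those of their own level (25.7% against 23.5%).

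The dim end of the arrays moved with strain. The 5th percentile of the tested probe sets was 5.71 to 5.90 on the wild-type arrays, 5.10 to 5.22 on the *htz1Δ* arrays and 5.20 to 5.48 on those of the double mutants, while the other-species probe sets had a median difference from wild type of -0.01 to 0.05 in all mutants. When all 24 arrays were instead given 1 distribution by quantile normalization, all 51 calls against wild type kept their direction, 48 kept an adjusted p under 0.05, and 26 kept over 2-fold as well. Members called lower and higher were then 5 and 4 in *htz1Δ*, 3 and none in *swr1Δ*, 2 and 1 in *htz1Δ swr1Δ*, 3 and 2 in *swc2Δ*, 4 and 4 in *htz1Δ swc2Δ*, 2 and 1 in *swc5Δ* and 2 and 1 in *htz1Δ swc5Δ*. With the values as deposited, where the median of all tested probe sets was shifted by -0.44 in *swr1Δ*, 0.32 in *swc2Δ* and 0.21 in *swc5Δ*, they were 20 and none, 3 and 2, and 2 and 1 in these strains. Under quantile normalization the members' median turned from -0.32 to 0.01 in *htz1Δ*, from -0.15 to 0.14 in *swc2Δ* and from -0.22 to 0.07 in *swc5Δ*, and it also turned positive in *htz1Δ swc2Δ* and *htz1Δ swc5Δ*. How far the lower levels of dim members came from the level of the whole dim end was not tested. Quantile normalization added higher calls of *MND1* and *SPO19* in *htz1Δ*, *SPS100* in *htz1Δ swr1Δ*, *SPS1*, *SPS100* and *SSP2* in *htz1Δ swc2Δ*, and *SPO19* in *swc5Δ* and *htz1Δ swc5Δ*. The calls it ended are given gene by gene.

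**Figure D3:**
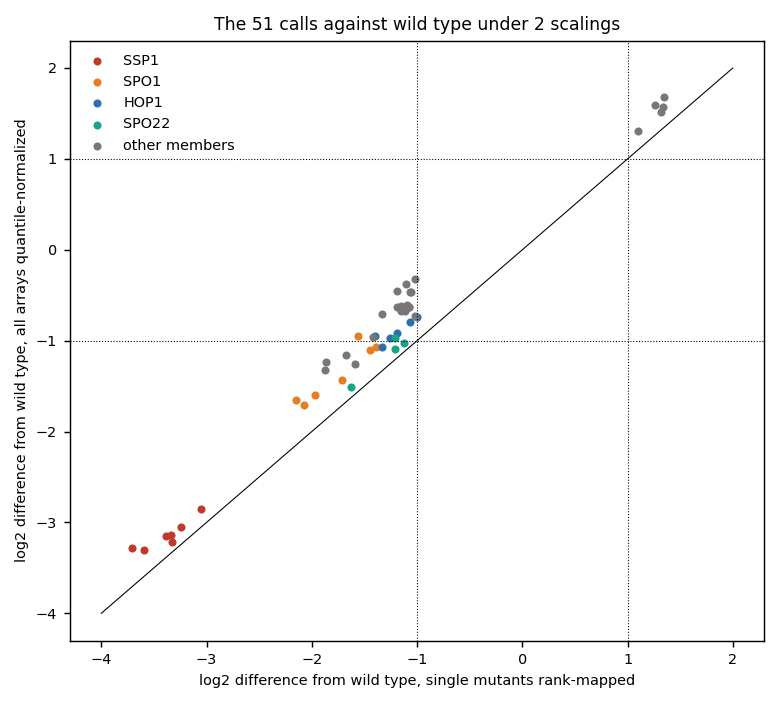
Log2 difference from wild type of the 51 called changes under the rank mapping of single mutants (horizontal axis) and under quantile normalization of all arrays (vertical axis), with the line of equality and dotted lines at 2-fold. All points keep their sign, lower calls move toward 0, and *SSP1* remains at -2.86 or below.

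**Figure D4:**
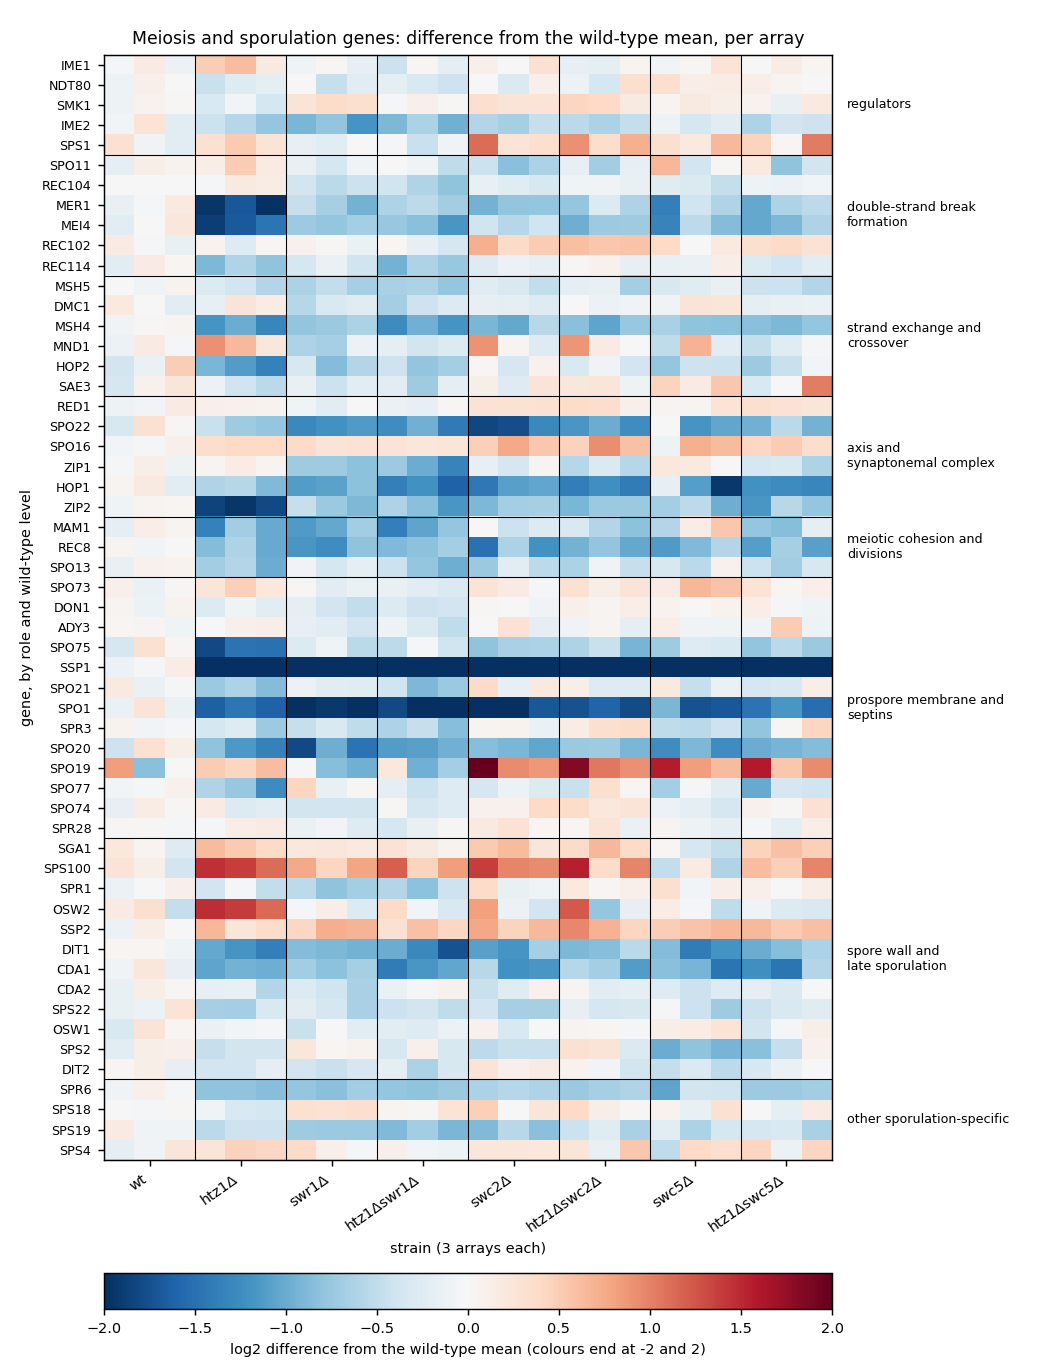
Log2 difference of each member from its wild-type mean on each of the 24 arrays, in rows by role and in columns by strain. *SSP1* and *SPO1* are low in all 7 mutants, *MER1*, *MEI4*, *ZIP2* and *SPO75* are lowest in *htz1Δ*, and *SPO19* and *SPS100* are high in several mutants.

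None of the 5 regulators was called in any mutant. *IME1*, the master inducer of meiosis, was at 7.64, 7.85 and 7.56 in wild type and at 8.18, 8.30 and 7.87 in *htz1Δ*. The difference of 0.43 ± 0.13 (SE) had an adjusted p of 0.0085 but was under 2-fold, and in the 6 other mutants *IME1* differed by -0.19 to 0.13 with no adjusted p under 0.05. *IME2*, the kinase that Ime1 induces, was at 6.49, 6.83 and 6.32 in wild type, and its difference was -0.22 to -0.96, with an adjusted p under 0.05 in 6 of the 7 mutants and 2-fold in none. *NDT80*, the activator of the middle genes, was at 7.09, 7.29 and 7.21 and differed by -0.30 to 0.21, with no adjusted p under 0.05. The protein kinase genes *SMK1* and *SPS1*, which act in spore formation, differed by at most 0.66 in either direction.

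Of the 6 genes for making and preparing double-strand breaks, *MER1* and *MEI4* were lower in *htz1Δ*. *MER1*, an activator of splicing of meiotic transcripts, was at 6.09, 6.20 and 6.43 in wild type and at 4.29, 4.54 and 4.26 in *htz1Δ*. On the 18 arrays of the other 6 mutants it ranged from 4.87 to 5.96, with a median of 5.60. These 3 sets of arrays did not overlap, with *htz1Δ* lowest. *MER1* fell by 1.88 ± 0.20 in *htz1Δ* (3.68-fold, adjusted p = 5.1e-07). The differences in the 6 others were -0.56 to -0.84 and under 2-fold, each with an adjusted p under 0.05. *MEI4*, needed for break formation with Rec114, was at 6.01, 6.22 and 6.47 in wild type, at 4.35, 4.55 and 4.77 in *htz1Δ* and at 4.90 to 5.84, median 5.49, elsewhere. It fell by 1.68 ± 0.17 in *htz1Δ* (adjusted p = 3.2e-07). In the 6 others *MEI4* was lower by less than 2-fold, each with an adjusted p under 0.05. *SPO11*, which cuts the DNA, was at 6.45, 6.76 and 6.71 in wild type and did not pass in any mutant. *REC102*, *REC104* and *REC114* had no change over 2-fold.

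Among the genes of strand exchange and crossover, *HOP2* and *MSH4* were called. *HOP2*, which acts with *MND1* in homolog pairing, was at 3.60, 3.83 and 4.46 in wild type and at 3.05, 2.85 and 2.62 in *htz1Δ*, where it was below background on all 3 arrays. Its measured difference there was -1.12 (adjusted p = 0.00024), and -0.63 under quantile normalization. Where a gene was below background on all arrays of a mutant its fall is only bounded, and the bound sets each such array at its own 95th percentile of other-species probe sets. Falls given as at least a value are such bounds. They hold for the reported scaling, carry no error, and can exceed the difference under quantile normalization. For *HOP2* the bound was at least 1.12-fold. *MSH4*, whose product marks crossover sites with that of *MSH5*, was at 6.02, 6.11 and 6.15 in wild type and at 4.79 to 5.54 on the mutant arrays, so that the sets did not overlap. It passed 2-fold in *htz1Δ* (fell by 1.16) and *htz1Δ swr1Δ* (fell by 1.13), and in neither under quantile normalization (-0.62 and -0.65). Over the 7 mutants the difference of *MSH4* was -0.72 to -1.16, each with an adjusted p under 0.05. *MSH5* was brighter, at 8.01 to 8.15 in wild type, and differed by -0.24 to -0.68, never 2-fold. *DMC1*, the meiotic recombinase, and *MND1* were not called.

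The genes of the chromosome axis and the synaptonemal complex held 4 called members of 6. *ZIP2*, which starts synapsis, was at 5.80, 5.93 and 5.92 in wild type, at 4.04, 3.93 and 4.08 in *htz1Δ* and at 4.72 to 5.43, median 5.14, in the rest. As for *MER1*, the 3 sets of arrays did not overlap. It fell by 1.87 ± 0.15 in *htz1Δ* (3.65-fold, adjusted p = 2.6e-08). The differences in the 6 others were -0.70 to -0.87, each with an adjusted p under 0.05. *ZIP1*, which encodes a protein of the synaptonemal complex, was at 6.62, 6.76 and 6.54 in wild type and at 5.91, 5.65 and 5.31 in *htz1Δ swr1Δ*. There it fell by 1.02 (adjusted p = 8.1e-06, and by 0.73 under quantile normalization). It was at 6.69, 6.79 and 6.70 in *htz1Δ*. The axis gene *RED1* and the synapsis gene *SPO16* were not called. The difference of *SPO16* was 0.24 to 0.66, with an adjusted p under 0.05 in 5 mutants.

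*HOP1* (YIL072W) and *SPO22* (YIL073C) are neighbours on chromosome IX and are transcribed away from each other. Both fell in *swr1Δ*, *swc2Δ*, *htz1Δ swr1Δ* and *htz1Δ swc2Δ*. *HOP1*, an axis protein, was at 6.28, 6.40 and 6.01 in wild type. It was at 5.63, 5.67 and 5.34 in *htz1Δ*, a difference of -0.68 that did not reach 2-fold, and at 4.86, 5.02 and 4.62 in *htz1Δ swr1Δ*, where it fell by 1.40 ± 0.27 (adjusted p = 0.00058). It was called in the 6 mutants other than *htz1Δ*, with falls of 1.00 to 1.40. In *swc5Δ* the 3 cultures were at 6.07, 5.13 and 4.30, so that culture 1 lay within the wild-type range. Without that culture the difference was -1.52 (adjusted p = 7.7e-06). Under quantile normalization *HOP1* stayed over 2-fold only in *htz1Δ swc2Δ*, and its 5 other differences were -0.74 to -0.97.

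*SPO22*, also known as *ZIP4*, was at 6.84, 7.47 and 7.19 in wild type, 6.72, 6.45 and 6.39 in *htz1Δ* and 5.35, 5.39 and 5.87 in *swc2Δ*. It fell by 1.63 ± 0.23 in *swc2Δ* (adjusted p = 3.6e-05), by 1.21 in *swr1Δ*, by 1.21 in *htz1Δ swr1Δ* and by 1.13 in *htz1Δ swc2Δ*. In *htz1Δ*, *swc5Δ* and *htz1Δ swc5Δ* its differences were -0.65, -0.74 and -0.82, each with an adjusted p under 0.05. Here too *swc5Δ* culture 1, at 7.15, stood with wild type while cultures 2 and 3 were at 5.99 and 6.13, and without it *SPO22* passed in *swc5Δ* (-1.11, adjusted p = 0.00015). Under quantile normalization *SPO22* lost 2-fold in *htz1Δ swr1Δ* (-0.97) and kept it in the 3 others. The outer neighbours *SER33* and *PCI8* were not called in any mutant. Another 3 pairs of members are adjacent in the gene order. Of *DIT2* and *DIT1* only *DIT1* was called, and neither *SPS2* with *SPS1* nor *SPS18* with *SPS19* was called in any mutant.

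Of the 3 genes for cohesion and the divisions, *REC8* and *MAM1* were called. *REC8*, the meiotic cohesin subunit, was at 5.60, 5.50 and 5.56 in wild type and at 4.06 to 4.97 on the 21 mutant arrays, all below wild type. Its difference was -0.79 to -1.11, over 2-fold in *swr1Δ* and *swc2Δ* (adjusted p = 0.00017 and 0.00014), and at -0.63 and -0.67 there under quantile normalization. The adjusted p of *REC8* was under 0.05 in all 7 mutants. *MAM1*, a monopolin subunit, was at 5.45, 5.78 and 5.70 in wild type and at 4.29, 4.95 and 4.64 in *htz1Δ*. It fell by 1.02 in *htz1Δ* and by 1.07 in *htz1Δ swr1Δ*, and lost both calls under quantile normalization (-0.32 and -0.46, adjusted p = 0.26 and 0.15). In *swc5Δ*, where chromosome V differed between cultures, *MAM1* was at 5.06, 5.78 and 6.18. *SPO13*, which keeps sister centromeres together in the first division, was at 4.98 to 5.21 in wild type and was not called.

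The largest change of any member was that of *SSP1*, which encodes a coat protein at the leading edge of the prospore membrane. It was at 6.84, 6.92 and 7.10 in wild type and at 2.98 to 4.43 on the 21 mutant arrays, with a median of 3.52. There were therefore more than 2 log2 units between the lowest wild-type and the highest mutant culture. In *htz1Δ*, *swr1Δ* and *htz1Δ swr1Δ* it was below background on all 3 arrays, and its fall was at least 8.86-fold, 8.55-fold and 8.44-fold, with measured differences of -3.71 ± 0.21 (adjusted p = 2.5e-10), -3.33 and -3.59. In the 4 other mutants, where 1 or 2 of the 3 arrays were above background, *SSP1* fell by 3.25 in *swc2Δ*, by 3.33 in *htz1Δ swc2Δ*, by 3.05 in *swc5Δ* (8.27-fold) and by 3.39 in *htz1Δ swc5Δ*. Among all tested probe sets ordered from the lowest measured difference up, it stood at rank 2 in *swr1Δ* and *swc5Δ*, where only the deleted gene was lower, at rank 3 in *htz1Δ swr1Δ*, *swc2Δ* and *htz1Δ swc2Δ*, at rank 4 in *htz1Δ* and at rank 5 in *htz1Δ swc5Δ*. It was above background on 8 of the 24 arrays, the 3 of wild type among them. Under quantile normalization its difference was still -2.86 to -3.30. Its neighbours *GND1*, at 12.79 in wild type, and *PFS1*, at 2.40, were not called in any mutant.

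*SPO1*, which encodes a phospholipase-like protein of the forming spore, was the other member called in all 7 mutants. It was at 5.74, 6.13 and 5.74 in wild type and at 3.50 to 4.96 on the mutant arrays, with a median of 4.13 and no overlap. The largest fall was 2.15 ± 0.19 in *htz1Δ swr1Δ* (4.45-fold, adjusted p = 1.3e-07) and the smallest 1.39 in *htz1Δ swc5Δ* (2.61-fold, adjusted p = 2.9e-05). In *htz1Δ swr1Δ* 1 of the 3 arrays was above background. In *swr1Δ*, where none was, its measured difference was -2.08 (-1.70 under quantile normalization) and its fall by the bound at least 4.04-fold. In *swc2Δ* and *swc5Δ* it fell by 1.97 and 1.45, and in *htz1Δ* by 1.56. Under quantile normalization it lost 2-fold in *htz1Δ* (-0.95, adjusted p = 0.00037) and kept it in the 6 others. Neither neighbour, *HEF3* nor YNL011C, was called.

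*SPO20*, a SNAP-25 relative that fuses vesicles to the prospore membrane, was at 4.51, 5.24 and 5.05 in wild type and at 3.13 to 4.22 in the mutants, close to the background. In *swr1Δ*, where the cultures were at 3.13, 3.96 and 3.45 and none was above background, the measured difference was -1.42 ± 0.18 (adjusted p = 9.8e-06) and the fall at least 2.11-fold. *SPO20* fell by 1.10 in *htz1Δ*, by 1.06 in *htz1Δ swr1Δ* and by 1.13 in *swc5Δ*, with 1 or 2 arrays above background in each. Over the 7 mutants its difference was -0.79 to -1.42, each with an adjusted p under 0.05. All 4 calls ended under quantile normalization, with -0.37 to -0.96. The neighbour *SOK2* was not called, and the other, *PEX9*, was not analysed here. *SPO75*, needed for spore wall formation, followed *htz1Δ* instead. It was at 6.73, 7.36 and 7.08 in wild type, at 5.25, 5.59 and 5.56 in *htz1Δ* and at 6.13 to 7.02 on the other 18 mutant arrays, which overlapped wild type. It fell by 1.59 ± 0.17 in *htz1Δ* (adjusted p = 7.4e-07) and differed by -0.30 to -0.69 elsewhere. Its adjusted p was under 0.05 in 4 of the 7 mutants.

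*SPO19*, a prospore membrane protein isolated as a suppressor of *spo1*, was the member of this role that was higher. The wild-type cultures were at 5.70, 4.03 and 4.88, those of *swc2Δ* at 7.10, 5.81 and 5.73 and those of *htz1Δ swc2Δ* at 6.70, 5.92 and 5.78. The wild-type cultures thus spread over more than 1 log2 unit, and the highest of them lay just under the lowest *swc2Δ* culture. *SPO19* rose by 1.34 ± 0.44 in *swc2Δ* (adjusted p = 0.024) and by 1.27 in *htz1Δ swc2Δ* (adjusted p = 0.034). Without wild-type culture 2, wild-type culture 3 or *swc2Δ* culture 1, the adjusted p in *swc2Δ* was 0.15, 0.054 and 0.15. Culture 1 was the highest of its strain in 7 of 8 strains, as for *REC102* among the members and 0.491% of all tested probe sets. In *swc5Δ* and *htz1Δ swc5Δ* *SPO19* was 1.01 and 1.02 higher and did not pass (adjusted p = 0.084 and 0.075), although with the replicate number as a block it did (adjusted p = 0.0021 and 0.0018), as it did under quantile normalization. The remaining 8 genes of this role (*SPO21*, *SPO73*, *SPO74*, *SPO77*, *DON1*, *ADY3*, and the septin genes *SPR3* and *SPR28*) were not called.

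**Figure D5:**
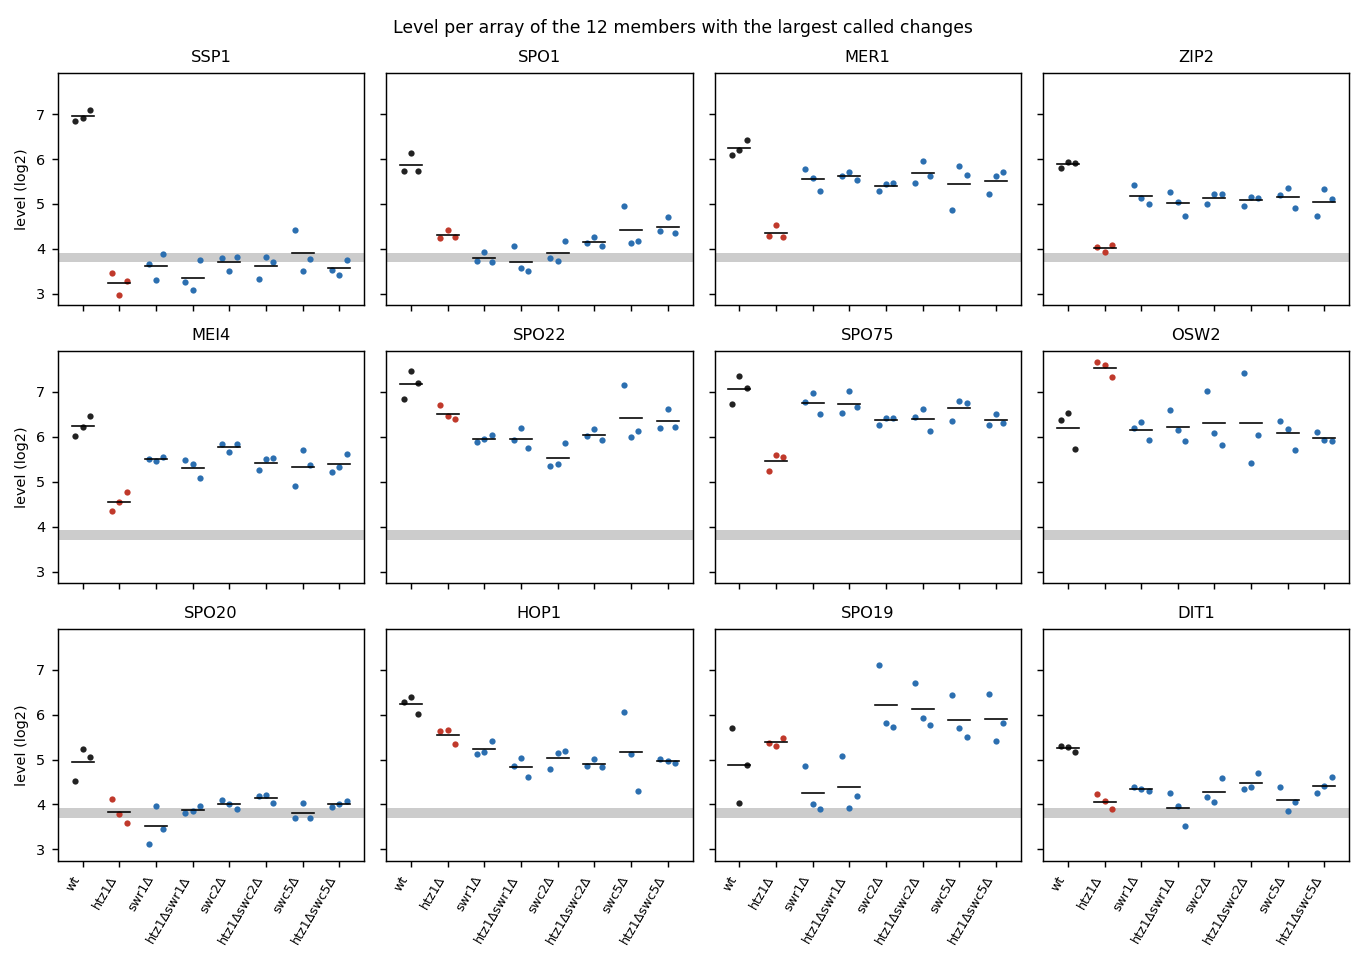
Level (log2) of the 12 members with the largest called changes on each array, by strain, with wild type in black, *htz1Δ* in red, the other mutants in blue, a line at each strain's mean and a grey band for the 95th percentile of other-species probe sets over the 15 arrays that were not rank mapped. *SSP1* lies in or below the band on the arrays of *htz1Δ* and the double mutants (2.98 to 3.82), *MER1*, *ZIP2*, *MEI4* and *SPO75* are lowest in *htz1Δ*, and *OSW2* is high in *htz1Δ*.

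In the spore wall group 2 members rose and 2 fell. *OSW2*, which acts in the outer spore wall, was at 6.38, 6.52 and 5.72 in wild type and at 7.68, 7.61 and 7.34 in *htz1Δ*, where it rose by 1.34 ± 0.37 (2.52-fold, adjusted p = 0.0062). The other mutants had a median of 6.11, with 2 single high cultures, *swc2Δ* culture 1 at 7.02 and *htz1Δ swc2Δ* culture 1 at 7.43. *SPS100*, needed for maturation of the wall, was at 6.65, 6.51 and 6.02 in wild type, at 7.86, 7.78 and 7.50 in *htz1Δ* and at 7.77, 7.37 and 7.33 in *swc2Δ*. It rose by 1.32 and 1.10 in these strains (adjusted p = 0.00048 and 0.0038). It did not reach 2-fold in the other mutants, and in *swc5Δ* it was at 5.90, 6.56 and 5.80. In 5 of the 7 mutants *SPS100* was higher with an adjusted p under 0.05. Both *OSW2* in *htz1Δ* and *SPS100* in these 2 strains kept their calls under quantile normalization.

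*DIT1*, the first enzyme of dityrosine synthesis, was at 5.30, 5.29 and 5.16 in wild type and at 3.51 to 4.71 in the mutants, without overlap. It fell by 1.34 ± 0.17 in *htz1Δ swr1Δ* (adjusted p = 8.8e-06), by 1.19 in *htz1Δ* and by 1.16 in *swc5Δ*. Over the 7 mutants its difference was -0.76 to -1.34, each with an adjusted p under 0.05. *CDA1*, a chitin deacetylase of the spore wall, was at 4.82, 5.10 and 4.72 in wild type and at 3.41 to 4.32 in the mutants, and fell by 1.07 in *swc5Δ* and 1.09 in *htz1Δ swc5Δ*. In *htz1Δ swr1Δ*, where no array was above background, its measured difference was -1.20 and its fall at least 2.01-fold. Over the 7 mutants the difference of *CDA1* was -0.72 to -1.20, each with an adjusted p under 0.05. All 6 calls of *DIT1* and *CDA1* dropped under 2-fold with quantile normalization (-0.46 to -0.71). Its paralog *CDA2* was at 4.51 to 4.78 in wild type and was not called. *SSP2*, an activator of the kinase Smk1, was the 1 member with every wild-type array, at 5.91, 6.14 and 6.03, below every mutant array, at 6.26 to 6.99. It was 0.42 to 0.70 higher, with an adjusted p under 0.05 in all 7 mutants and 2-fold in none. The remaining *DIT2*, *OSW1*, *SPS2*, *SPS22*, *SPR1* and *SGA1* were not called, nor were the 4 genes named only for their induction in sporulation. Of the latter, *SPR6* was 0.60 to 0.82 lower and *SPS19* 0.40 to 0.83 lower, with an adjusted p under 0.05 in every mutant.

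Over all members, the 3 wild-type arrays lay above all 21 mutant arrays for 13 of the 55, against 8.09% of all tested probe sets and 20.1% of those with a mean level of 4 to 7, where the members' share was 28.6% (10 of 35). They lay below them for 1, against 5.17%. The 3 *htz1Δ* arrays lay below all others for 5 members (*HOP2*, *MEI4*, *MER1*, *SPO75* and *ZIP2*), against 6.78% of all tested and 6.79% of that level, where the members' share was 11.4% (4 of 35).

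The comparison of each double mutant with *htz1Δ* asks whether the loss of a SWR1 subunit alters what is seen in *htz1Δ*. By the paper, the complex does not form in *swr1Δ*, cannot bind chromatin in *swc2Δ*, and binds without replacing histones in *swc5Δ*. The means of *MER1*, *ZIP2*, *SPO75* and *MEI4* lay between those of *htz1Δ* and wild type in all 3 double mutants, and *OSW2* differed from wild type there by -0.23 to 0.09. *DIT1*, *HOP2*, *MAM1*, *MSH4* and *SPO20*, also called lower in *htz1Δ*, were not called between it and any double mutant. In *htz1Δ* and its doubles with *swr1Δ*, *swc2Δ* and *swc5Δ*, *DIT1* was at 4.06, 3.91, 4.49 and 4.42. In the same order *MAM1* was at 4.63, 4.58, 5.07 and 5.03, and *MSH4* at 4.94, 4.96, 5.21 and 5.26. *SPO20* was at 3.83, 3.88, 4.15 and 4.01, and *HOP2* at 2.84, 3.34, 3.71 and 3.56. *MER1* rose by 1.27 ± 0.20 in *htz1Δ swr1Δ*, by 1.32 in *htz1Δ swc2Δ* and by 1.16 in *htz1Δ swc5Δ*, relative to *htz1Δ* (adjusted p = 9.6e-05, 8.9e-05 and 0.00031). *ZIP2* rose by 1.07 and 1.04 in the doubles with *swc2Δ* and *swc5Δ*, and in that with *swr1Δ* its difference of 1.00 fell just short of 2-fold. *SPO75* rose by 1.27 in *htz1Δ swr1Δ* and was 0.93 and 0.91 higher in the others, and *MEI4* was 0.76 to 0.87 higher. *OSW2* fell by 1.33, 1.24 and 1.56 (adjusted p = 0.0097, 0.015 and 0.004). *ZIP1* fell by 1.10 in *htz1Δ swr1Δ*. Of these 10 calls 6 were kept under quantile normalization, which ended those of *ZIP2* (0.75 and 0.75), of *ZIP1* (-0.99) and of *MER1* in *htz1Δ swc5Δ* (0.88). In all, 2 members were lower and 2 higher in *htz1Δ swr1Δ* than in *htz1Δ* (1.29% and 1.33% of all tested), 1 and 2 in *htz1Δ swc2Δ* (0.928% and 0.946%) and 1 and 2 in *htz1Δ swc5Δ* (1.15% and 1.07%). *SSP1* differed from *htz1Δ* by 0.12 to 0.38 and *SPO1* by -0.59 to 0.18, and neither was called. The *htz1Δ* strain alone was also *bar1Δ*. For changes seen in it and not in the doubles, the loss of *BAR1* and that of *HTZ1* with these SWR1 subunits present cannot be told apart.

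Whether the loss of a subunit had another effect in *htz1Δ* than in *HTZ1* cells was tested by the interaction, the difference of double mutant and *htz1Δ* minus that of single mutant and wild type. Since the *htz1Δ* strain alone was also *bar1Δ*, the loss of *BAR1* enters the interaction and cannot be told apart in it. The interaction was called for 10 members with *swr1Δ*, 14 with *swc2Δ* and 11 with *swc5Δ*, against 5.07%, 5.04% and 6.66% of all tested, and was positive for 9, 13 and 10 of them. The share called among probe sets with a mean level of 4 to 7 was not computed. Members in that range had median interactions of 0.29, 0.61 and 0.46, and all probe sets in it had 0.26, 0.41 and 0.36. The numbers of members called positive and negative were 6 and 1, 5 and 3, and 5 and 2 under quantile normalization, and 18 and none, 5 and 3, and 8 and 2 with the values as deposited. For *SSP1* the interaction was 3.45 ± 0.30 with *swr1Δ* (adjusted p = 2e-07). There the loss of *SWR1* lowered *SSP1* by 3.33 from wild type and left it 0.12 higher in *htz1Δ*, where it was below background on all 3 arrays and a further fall could not be measured. For *MER1* the interaction was 1.95, 2.16 and 1.95 with the 3 subunits, and here each subunit's loss came with a lower level in *HTZ1* cells (by 0.69 with *swr1Δ*) and a higher one in *htz1Δ*.

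The genes that hold the program off or start it were compared as a list of 24, all measured. None was called lower in any mutant, against 1.49% to 3.55% of all tested, although 2 to 6 had an adjusted p under 0.05 and a lower level. With shares this small, the lack of lower calls among 24 genes does not set the list apart. Of the 24, 22 were over a level of 7. The 1 called higher was *RIM4*, an RNA-binding regulator of meiosis, which was at 5.75 in wild type. It rose by 1.13 in *htz1Δ*, 1.43 in *swr1Δ* and 1.03 in *htz1Δ swr1Δ*, where 2.11%, 0.837% and 0.764% of all tested were called higher. The list's median difference was 0.01 to 0.12. *SUM1*, the repressor of middle genes, was 0.36 to 0.92 higher and *HST1*, its partner deacetylase, 0.84 lower in *swr1Δ* and 0.62 lower in *htz1Δ swr1Δ*, all under 2-fold. These 2 genes were picked after their values were seen. Of 29 further meiosis and sporulation genes, 3 were lower in *htz1Δ*, 3 in *swr1Δ*, 5 in *htz1Δ swr1Δ*, 3 in *swc2Δ*, 1 in *htz1Δ swc2Δ*, 4 in *swc5Δ* and 1 in *htz1Δ swc5Δ*, and none was higher. The background is that given for the members, 1.49% to 3.55% of all tested and 11.1% to 23.5% of those with a mean level of 4 to 7. Of the 29 genes, 12 lay in that range, 10 under 4 and 7 over 7. *LOH1*, a spore wall gene, was at 4.85 in wild type and was called lower in all 7, with no mutant array above background, so that its fall is only bounded, from at least 1.97-fold in *htz1Δ swr1Δ* to at least 2.17-fold in *htz1Δ swc5Δ*. *AMA1*, an activator of the anaphase-promoting complex in meiosis, fell by 1.31 in *htz1Δ swr1Δ*, by 1.24 in *swc2Δ* and at least 2.44-fold in *swr1Δ*. *PCH2*, a checkpoint ATPase, fell at least 2.40-fold in *htz1Δ*. Both bounds are again of mutants with no array above background. *MPC54*, *GAS4* and *CRR1*, of the spindle pole body plaque and the spore wall, fell by 1.01 to 1.41 in 2 to 4 mutants.

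The cell type was checked with markers. All 6 a-specific genes were bright in wild type (8.90 to 13.27), as were the 8 haploid-specific genes (8.04 to 11.76), which diploid cells repress. Of the 4 alpha-specific genes, *MF(ALPHA)1* and *MF(ALPHA)2* were at 4.35 to 4.84, *SAG1* was at 8.28 and *STE3* at 7.72. *STE3* was called lower in all 7 mutants, with differences of -2.10 to -2.78, as were *SSP1* and *SPO1*. *SAG1* rose by 1.01 in *htz1Δ* and was 0.30 to 0.88 higher in the others, *MF(ALPHA)2* was 0.29 to 0.67 higher, and *MF(ALPHA)1* differed by -0.63 to 0.65, none of these reaching 2-fold but *SAG1* in *htz1Δ*. Among the a-specific genes only the deleted *BAR1* and *ASG7* were called, both in *htz1Δ*, where *ASG7* rose by 1.28 (adjusted p = 8.1e-05). No haploid-specific gene was called in any mutant. The summed linear level of the alpha-specific genes was 554 to 605 in wild type and 443 to 787 in the mutants. Their part in the results was not tested.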

How the data were processed

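The authors captured signals with GCOS, summarized them per probe set by RMA, and deposited the result as log2 expression values. The submitters' notes also name limma. Whether 1 RMA run covered all arrays is not given in the sources used here. Of the 10928 probe sets, 5498 have a single *S. cerevisiae* gene and were tested, 1746 belong to another species and 3684 have no single gene here. Within the tested probe sets the 9 arrays of *swr1Δ*, *swc2Δ* and *swc5Δ* were given, rank for rank, the values of the average array over the other 15. Comparisons used limma 3.58.1 in R 4.3.3 (1 mean per strain over all 24 arrays, 16 residual and 2.80 prior degrees of freedom), with Benjamini-Hochberg adjustment over all tested probe sets of a comparison. Errors given with ± are standard errors of that fit. The scripts were tested on simulated data. The members, the lists by role and the lists of other genes were chosen with earlier results of these data known. Full values were given for the 12 members with the largest called change, for the 3 brightest, the 3 dimmest and *IME1*, *IME2* and *NDT80*, neighbours were named of members called in 4 or more mutants, and further members were named by their calls or because they stood apart after their values were seen. The labels give *swr1Δ* cultures 2 and 3 other strain names than culture 1, and the 3 were taken as 1 strain. Gene order and names came from the RefSeq annotation (R64), and no coordinates were used, since the array annotation names no build. The number of arrays limits the precision. Alternatives were the scaling, a filter on dim probe sets, the probe sets and strains in the fit, the replicate number as a block, and each culture left out.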

Additional observations from a re-analysis of the deposited data

Results flagged for a closer look

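The following members had a called interaction in the limma fit (adjusted p under 0.05 and over 2-fold). It compares the effect of losing a SWR1 subunit between *htz1Δ* and *HTZ1* cells. Since the *htz1Δ* strain alone was also *bar1Δ*, the loss of *BAR1* enters the interaction and cannot be told apart in it. With *swr1Δ* the interaction on the log2 scale was 3.45 for *SSP1*, 1.95 for *MER1*, 1.70 for *ZIP2*, 1.57 for *SPO75*, 1.49 for *SPO1*, 1.48 for *MEI4*, 1.47 for *SPO20*, 1.11 for *REC8*, 1.09 for *HOP2* and -1.16 for *SPS100*. With *swc2Δ* it was 3.63 for *SSP1*, 2.16 for *MER1*, 1.82 for *SPO1*, 1.81 for *ZIP2*, 1.62 for *SPO75*, 1.40 for *DIT1*, 1.32 for *MEI4*, 1.25 for *SPO20*, 1.17 for *CDA1*, 1.15 for *SPO22*, 1.11 for *MSH4*, 1.08 for *SPO77*, 1.02 for *REC8* and -1.45 for *SPS100*. With *swc5Δ* it was 3.38 for *SSP1*, 1.95 for *MER1*, 1.76 for *ZIP2*, 1.73 for *MEI4*, 1.63 for *SPO1*, 1.52 for *DIT1*, 1.32 for *SPO75*, 1.30 for *SPO20*, 1.25 for *HOP2*, 1.08 for *MSH4* and -1.43 for *OSW2*. Of these members only *MER1*, *ZIP2*, *SPO75* and *OSW2* were called between a double mutant and *htz1Δ*. *SSP1* and *HOP2* were below background on all 3 *htz1Δ* arrays, so a further fall could not be measured there. Others were close to background. *SPO20* was above it on 1 of the 3 *htz1Δ* arrays, and *CDA1* was at 3.82, 3.94 and 3.91 on them. *SPO1* was above it on 1 of the 3 *htz1Δ swr1Δ* arrays and on none of *swr1Δ*. How far the background set the size of these interactions was not tested. Under quantile normalization the interactions with *swc2Δ* were 5 positive and 3 negative and those with *swc5Δ* 5 and 2.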

How the results depend on the processing

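Under median centring, the use of all probe sets, the fit of only the strains compared and a rank mapping over all probe sets of the array (an alternative chosen after seeing the data), the counts of called members stayed within 1.5 times those reported. With quantile normalization of all arrays, called members numbered 3 in *swr1Δ*, 3 in *htz1Δ swr1Δ*, 8 in *htz1Δ swc2Δ* and 3 in *swc5Δ*, and interactions 8 with *swc2Δ* and 7 with *swc5Δ*. With the values as deposited they numbered 20 in *swr1Δ* and 3 in *swc5Δ*, and interactions 18 with *swr1Δ* and 8 with *swc2Δ*. When the 25% of probe sets with the lowest mean were dropped, 2 members (*SPO73* and *SPR6*) were still tested and 0 were called by limma in any of the 13 comparisons. In the fit as reported *SPR6* passed the adjusted p in 7 mutants and *SPO73* in 2, under 2-fold. Leaving out 1 culture at a time gave 3 to 9 called members in *swc5Δ*, with 3 without wild-type culture 2, and 11 to 14 in *htz1Δ*. *SPO19* in *swc2Δ* was 0.90 to 1.76 higher with a culture left out, and had an adjusted p of 0.09 with only the 2 strains in the fit. With the replicate block no count moved by over 1.5 times, and called members numbered 13 in *htz1Δ*, 7 in *swc5Δ* and 5 in *htz1Δ swc5Δ*, and *SPO19* had an adjusted p of 0.00021 in *swc2Δ*. The calls gained were of *SPO19* in *swc5Δ* and *htz1Δ swc5Δ* (adjusted p = 0.0021 and 0.0018), and no call against wild type or *htz1Δ* was lost. Residuals of arrays with the same number had a median correlation of 0.09 across strains (-0.37 to 0.62), against -0.04 (-0.50 to 0.36) for different numbers. The reported fit did not take the numbers to pair cultures. Such medians cannot settle pairing for a single gene such as *SPO19*. Members above background on all wild-type arrays numbered 48 at the 95th and 42 at the 99th percentile. A search of promoters for motifs was not run, because no promoter sequences were used here. Signal near background limits what can be said of a fall.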
